A study of Mus musculus with 4 samples.

Results

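Retinoid handling and aldehyde metabolism were followed through 8 genes of the 32285 in the deposited count matrices: Crabp2, Rbp2, Adh6a, Dhrs9, Rdh10, Aldh3a1, Rarg and Cyp26b1. They were given as a list of names, chosen with earlier results of these data known. Each was read in every keratinocyte layer and hair follicle compartment, in experimental against control epidermis within each time point. All 8 are protein-coding genes, and all 8 had enough counts in keratinocytes to be compared at both time points.

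Vitamin A reaches keratinocytes as retinol, which they store as esters or oxidise first to retinaldehyde and then to retinoic acid. Small binding proteins carry the retinoids inside the cell, dehydrogenases of the alcohol and short-chain families oxidise or reduce them, retinoic acid receptors read retinoic acid out in the nucleus, and CYP26 enzymes break it down. In skin, retinoic acid is known for its control of keratinocyte differentiation, of sebaceous glands and of the hair cycle. Aldh3a1 stands at the edge of the pathway: it is an aldehyde dehydrogenase best known for clearing the reactive aldehydes of lipid peroxidation in the cornea.

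The data were single-cell RNA sequencing libraries of adult mouse back-skin epidermis, 1 library for each of 4 groups. Control mice were DNp63fl/fl, carrying floxed alleles of DNp63, the p63 isoform of basal keratinocytes, without a Cre driver. Experimental mice were DNp63fl/fl;K14-CreT2, in which the keratin 14 promoter drives a tamoxifen-inducible Cre in basal keratinocytes and in the follicle cells that use that promoter. Both genotypes received tamoxifen by oral gavage at 200 mg/kg on each of 5 days, and cells were taken 1 day or 1 week after ablation. The mice were 2 to 17 months old, with males and females in equal numbers across the study; whether a library pooled animals is not given in the sources used here. Skin was digested in 0.25% trypsin, overnight at 4 °C or warm at 37 °C, and which digestion went with which library is not given in the sources used here. A 3′ kit was used at 1 day and a 5′ kit at 1 week, so ratios are taken within a time point and levels at 1 day and at 1 week are not compared.

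After filtering, 23047 control and 23741 experimental cells remained at 1 day and 19915 and 15639 at 1 week, from library totals of 68191870 to 179736563 unique molecular identifiers (UMIs, single counted RNA molecules). Of these, 21097 control and 15827 experimental cells were keratinocytes with enough UMIs to be classed at 1 day, against 6027 and 3312 for the 1-week libraries; a further 11566 and 10449 barcodes at 1 week were too shallow to name. Counts of Trp63, the gene that encodes DNp63, stood at 403 CPM (the gene's UMIs scaled to the same total for every library or cluster) in control and 126 CPM in experimental keratinocytes of 1 day, and the 1-week pair had 444 and 141 CPM; these counts cover the whole gene and do not single out the deleted part. The makeup of the libraries differed strongly. Basal-like cells numbered 4879 against 498 at 1 day and 2062 against 17 at 1 week, and spinous-like cells at 1 week 1122 against 6. In their place the experimental library held clusters almost or wholly without control cells: a Slpi-led one of 4069 cells against 4, a Fabp7-led one of 1461 and a Krt8-led one of 4337 at 1 day, and a Prl2c3-led one of 731 at 1 week. Clusters are named by their leading gene (the Krt79-led one by its second, after 2310046K23Rik), and a cluster held by 1 library may be a trait of that library. Pairs of libraries of the same time point shared 262 and 657 cell barcodes, and other pairs 9 to 18; leaving the shared ones out moved neither count of members past 2-fold in keratinocytes.

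With 1 library per group there is no replicate and no test. Differences are given as CPM of summed UMIs and as log2 ratios of experimental over control CPM, with 95% intervals that cover counting error only, and none of them says how mice of a group vary. A gene was called past 2-fold when its log2 ratio was at least 1 or at most -1 and both libraries together held at least 30 UMIs of it. In sums over keratinocytes, fewer cells of a type and less RNA per cell cannot be told apart. The sums of each member gene are therefore followed by values within clusters. Most other pathway genes are given as keratinocyte sums only, and for them this limit stands.

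The promoters of Rbp2 and Adh6a, whose levels differ by layer or compartment, and of the more evenly expressed receptor Rarg are printed as examples of that contrast. Dhrs9 also differs by layer, and its window is described but not printed. The RefSeq table of promoter windows (build GRCm38.p6) matched 5 of the 8 genes with 6 windows; Crabp2, Rdh10 and Aldh3a1 are only named. Each line gives the 250 bases before the RefSeq transcription start, 5′ to 3′ on the gene's strand, at chr9:98490287-98490536 (Rbp2, + strand), chr3:138313036-138313285 (Adh6a, + strand) and chr15:102257523-102257772 (Rarg, - strand). Capitals mark matches to AGGTCA or TGACCT, the hexamer bound by retinoid receptors, and to TATAAA or TTTATA, the TATA box, on either strand.
Rbp2: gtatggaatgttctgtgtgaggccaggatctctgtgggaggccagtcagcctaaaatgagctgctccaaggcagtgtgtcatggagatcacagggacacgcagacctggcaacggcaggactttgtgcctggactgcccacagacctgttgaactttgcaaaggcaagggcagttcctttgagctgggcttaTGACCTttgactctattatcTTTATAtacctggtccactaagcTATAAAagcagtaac
Adh6a: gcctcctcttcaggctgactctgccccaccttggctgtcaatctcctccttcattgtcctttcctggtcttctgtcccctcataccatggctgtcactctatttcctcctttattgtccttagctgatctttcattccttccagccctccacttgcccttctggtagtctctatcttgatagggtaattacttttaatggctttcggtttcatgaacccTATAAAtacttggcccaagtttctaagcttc
Rarg: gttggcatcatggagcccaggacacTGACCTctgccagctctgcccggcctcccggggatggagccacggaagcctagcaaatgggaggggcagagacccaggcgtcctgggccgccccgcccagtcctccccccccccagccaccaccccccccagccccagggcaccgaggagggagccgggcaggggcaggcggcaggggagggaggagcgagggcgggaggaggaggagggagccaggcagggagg
The Rbp2 window lies between exons of the longest GENCODE transcripts of Rbp2 and directly before the first exon of a shorter one. It holds 1 receptor hexamer 58 bases before the start and 2 TATA matches at 38 and 15 bases. The Adh6a window holds 1 TATA match at 31 bases and no receptor hexamer, and the Rarg window holds 1 receptor hexamer at 225 bases and no TATA match. The windows of Dhrs9 and Cyp26b1 held a receptor hexamer in Dhrs9 (88 bases before the start), none in Cyp26b1, and TATA matches in both; a search for the AP-1 letters TGANTCA matched Dhrs9 once, at 18 bases, and no other window, and the second window of Rarg matched none of the searches. Of all 32851 windows, 14.0% hold the receptor hexamer, 12.4% the TATA letters and 6.75% the AP-1 letters, and a match is a run of letters and not a shown binding site.

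In keratinocytes summed together, 1 of the 8 genes was past 2-fold higher at 1 day (Crabp2) and 1 past 2-fold lower (Adh6a), beside 5.78% of 14149 genes higher and 2.8% lower. At 1 week, 6 were past 2-fold higher (Crabp2, Rbp2, Dhrs9, Rdh10, Aldh3a1 and Cyp26b1) and 1 lower (Adh6a), beside 9.44% of 13671 genes higher and 5.29% lower. Rarg was past 2-fold at neither time. The sums of the 2 times do not cover like sets of clusters. The Prl2c3-led cluster, counted at 1 week, also leads with Krt8, Tslp and Nppb. The Krt8-led cluster of 1 day leads with these genes too, but was left out of the 1-day sum. Whether the 2 clusters hold like cells was not tested. When only clusters with at least 50 cells in both libraries were summed, no member was past 2-fold at 1 day and, of the 7 members with a value, only Crabp2 was at 1 week; Adh6a had too few UMIs there. Those clusters were 16 at 1 day and 3 at 1 week, the Cd34-led bulge-like, the Sprr4-led upper follicle-like and the Ccl2-led ones. Single clusters among the 3 were past 2-fold for other members too. The Ccl2-led one was higher for Rbp2 (2.25) and Cyp26b1 (1.01). The upper follicle-like one was higher for Aldh3a1 (1.03) and lower for Dhrs9 (-1.19). With all barcodes counted, Cyp26b1 in the 1-week sum was at 0.51 and no longer past 2-fold.

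Within single clusters, few members were past 2-fold. Of 7 members with enough UMIs in basal-like cells of 1 day, 2 were past 2-fold higher (Crabp2 and Rbp2) and 1 lower (Dhrs9), where 3.68% and 5.71% of genes were. In the Serpinb12-led spinous-like cluster 2 of 8 were higher (3.68% of genes) and none lower (3.24%), in the Mt4-led one none of 8 higher (5.61%) and 1 lower (6.57%), and in the Serpina12-led granular-like cluster 1 of 8 higher (3.32%) and 1 lower (2.11%). Cycling cells had 1 of 7 higher (4.21% of genes) and 1 lower (2.13%). The Krt24-led bulge-like cluster had 1 of 6 higher (2.56%) and none lower (0.848%), and the upper follicle-like clusters 1 of 5 higher (Cst6-led, 2.85%, with 1.28% lower) and none of 6 (Krt79-led, 2.1% and 1.11%). The Soat1-led sebaceous-like cluster had 1 of 4 higher (13.8%, with 2.56% lower), the Cstdc5-led 1 of 6 (10.7%, with 3.05% lower) and the Ramp1-led 2 of 5 (1.65%, with 1.32% lower), and the Ccl2-led none of 7 in either direction (2.1% and 0.733%). At 1 week the Ccl2-led cluster had 3 of 6 higher (Crabp2, Rbp2 and Cyp26b1, beside 3.77% of genes) and none lower (2.58%), and the sebaceous-like one 2 of 3 higher (9.86%, with 2.97% lower). Upper follicle-like cells had 1 of 6 higher (6.43%) and 1 lower (1.68%), granular-like cells none of 6 higher (5.81%) and 1 lower (13.5%), and bulge-like cells none of 5 in either direction (3.32% and 3.72%). Counts this small in a cluster are not a result about the set.

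**Figure D1:**
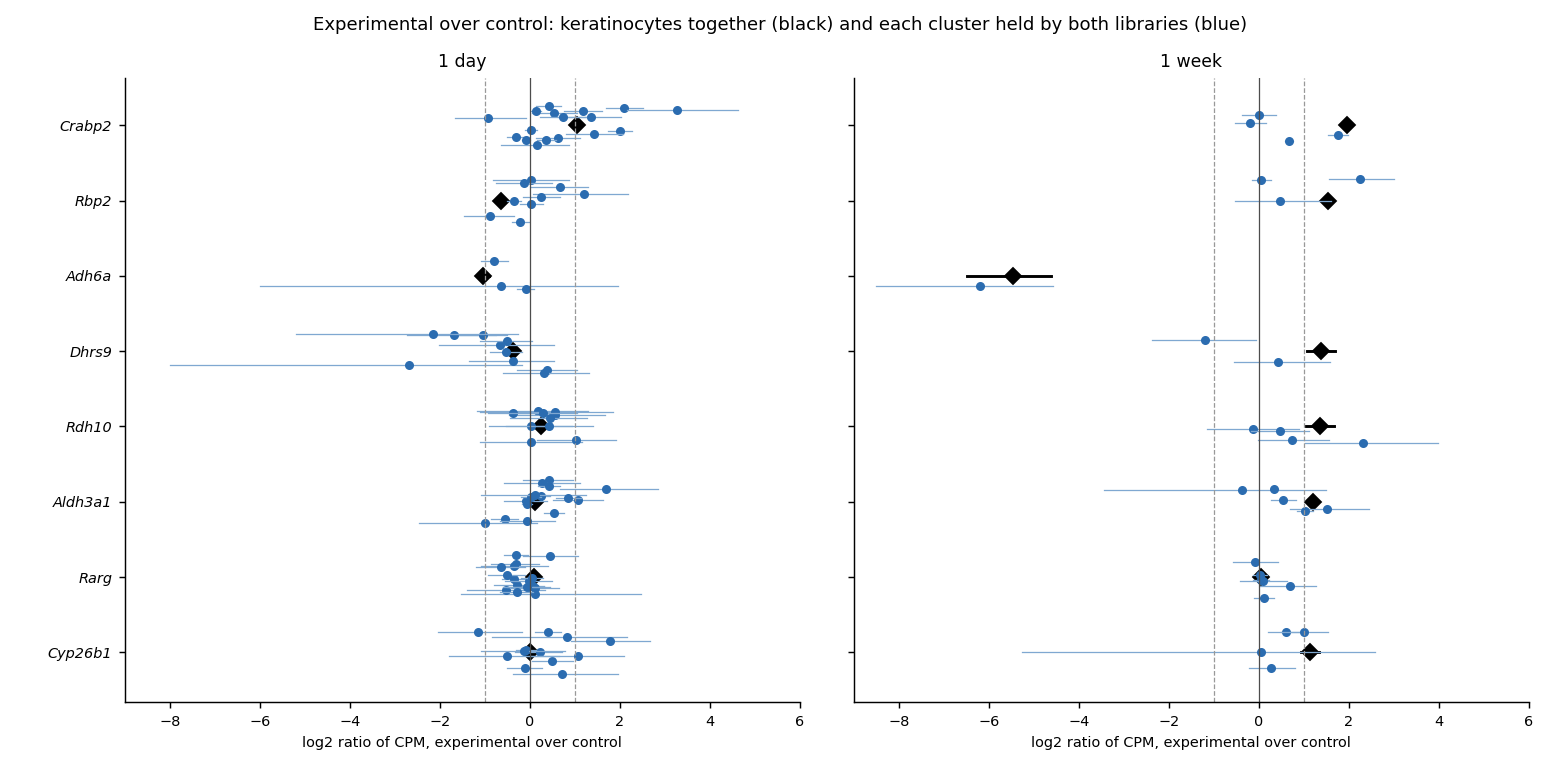
Log2 ratio of experimental over control CPM (x axis) for the 8 genes at 1 day and 1 week. Black diamonds are keratinocytes summed together, blue dots single clusters with at least 15 cells in each library and at least 30 UMIs, bars 95% counting intervals and dashed lines 2-fold; Adh6a at 1 week lies farthest left, at -5.47 for keratinocytes together, where Rarg lies at 0.09 and 0.04.

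Crabp2 encodes cellular retinoic acid binding protein 2, which carries retinoic acid to its receptors in the nucleus (chr3:87948666-87953376, + strand, GRCm38). At 1 day it stood at 82.9 CPM in control and 172 CPM in experimental keratinocytes. At 1 week the levels were 91.1 and 353 CPM. The log2 ratios were 1.05 [1.02, 1.09] and 1.95 [1.90, 2.00], the experimental library being the higher at both times. In control epidermis at 1 day Crabp2 was highest in the upper follicle and the outer layers. The Cst6-led upper follicle-like cluster had the highest level at 619 CPM, then came the Serpina12-led granular-like cluster at 252 CPM and the Krt79-led upper follicle-like one at 207 CPM. The late spinous-like cluster led by Serpinb12 had 187 CPM, against 13.4 CPM in the Mt4-led spinous-like and 5.14 CPM in the basal-like cluster. The bulge-like clusters were unlike each other. The Aspn-led one held 3.02% of the control UMIs with 3.14% of the cells, and the Krt24-led one 0.860% with 12.4%. The Mt4-led cluster also held 3.02%, but with 16.3% of the cells.

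In the clusters with the highest control levels Crabp2 differed little at 1 day. The Cst6-led upper follicle-like cluster had 619 CPM in control and 584 CPM in experimental (log2 ratio -0.08 [-0.18, 0.01]), and the Krt79-led one 207 and 210 CPM. In the Serpinb12-led spinous-like cluster the levels were 187 and 205 CPM (0.14), and in the Serpina12-led granular-like one 252 and 204 CPM (-0.31). It was past 2-fold higher in 6 clusters, 5 of which had under 20 CPM in control. Basal-like cells had 5.14 CPM in control and 13.2 CPM in experimental (1.37 [0.64, 2.03], from 114 and 22 UMIs), and the Krt24-led bulge-like cells 11.1 and 25.0 CPM (1.18 [0.75, 1.61]). Cycling cells had 9.48 and 40.6 CPM (2.10 [1.69, 2.52]). The exception was the Cstdc5-led cluster, which also leads with Krt6b, S100a8 and S100a9, genes known from wounded and inflamed epidermis: it had 106 and 427 CPM (2.00 [1.75, 2.27]), where 10.7% of genes were past 2-fold higher. Of the 16 keratinocyte clusters with at least 50 cells in both libraries, the interval lay above 0 in 12, below 0 in 1 and held 0 in 3. A further granular-like cluster, led by Lce1m, had 170 CPM in 16 control cells and 90.0 CPM in 280 experimental cells (-0.92 [-1.67, -0.08]).

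Clusters without control counterparts carried much of the experimental Crabp2. At 1 day the Slpi-led cluster, which leads with Slpi and several Sprr2 genes of the cornified envelope, had 220 CPM [214, 226] and held 41.9% of the Crabp2 UMIs of experimental keratinocytes with 25.7% of the cells. The Fabp7-led cluster had 185 CPM. The Krt8-led cluster, which was left unnamed and not counted among keratinocytes, had 41.04 CPM. Its count of keratinocyte markers was 2, as in some clusters that were counted, such as the Ramp1-led one. With the Krt8-led cluster and the unnamed ones counted in, the keratinocyte log2 ratio was 0.82 and no longer past 2-fold. At 1 week the Prl2c3-led cluster had 470 CPM and 52.6% of the UMIs from 22.1% of the cells. A small Aldh1a3-led cluster of 76 cells reached 3015 CPM [2814, 3227], the highest Crabp2 level at 1 week among the clusters summed on their own; low-UMI and mixed clusters were summed together.

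Among the 3 keratinocyte clusters that both 1-week libraries shared in number, Crabp2 differed by compartment. Bulge-like cells had 28.5 CPM in control and 28.8 CPM in experimental (log2 ratio 0.01 [-0.36, 0.38]). Upper follicle-like cells had 456 and 726 CPM (0.67 [0.58, 0.76]), and the Ccl2-led cluster 31.2 and 106 CPM (1.77 [1.55, 1.99]). Bulge-like cells thus showed no difference beyond counting error, and the other 2 clusters did. In the Ccl2-led cluster 3.77% of tested genes were past 2-fold higher. Leading genes of that cluster were the chemokines Ccl2 and Ccl7 and Fst, the inhibitor of activins.

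Crabp2 UMIs also differed in cells that are not keratinocytes. After every cell of at least 2000 UMIs was thinned to 2000, 8.83% of control and 21.5% of experimental keratinocytes had a Crabp2 UMI at 1 day (15.8% and 32.0% before thinning), beside 1.42% and 7.20% of immune cells. Shallower cells are left out of the thinned shares but are in those before thinning, so the 2 kinds of share cover different cells. At 1 week the thinned shares were 8.46% and 23.8%, beside 1.55% and 4.69% of immune cells (1.77% and 20.9% before thinning). Myeloid-like cells at 1 week had 19.3 CPM in control and 113 CPM in experimental, but their makeup differed: a Cd207-led cluster gave 124 control and 80 experimental cells and a Ccl8-led one, which leads with Lyz2 and C1qb, 20 and 122. The median depths before thinning were 4357 and 3631 UMIs for keratinocytes and 1685 and 2275.5 UMIs for immune cells at 1 day, and at 1 week 6708 and 7528.5 against 2494 and 1822 UMIs. Among cells deep enough to be thinned, shares in keratinocytes stood above those in immune cells in all 4 libraries. Most immune cells of the 1-day control and 1-week experimental libraries were too shallow for this and are left out. How much of the difference comes from free RNA in the droplets or from doublets was not tested.

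**Figure D2:**
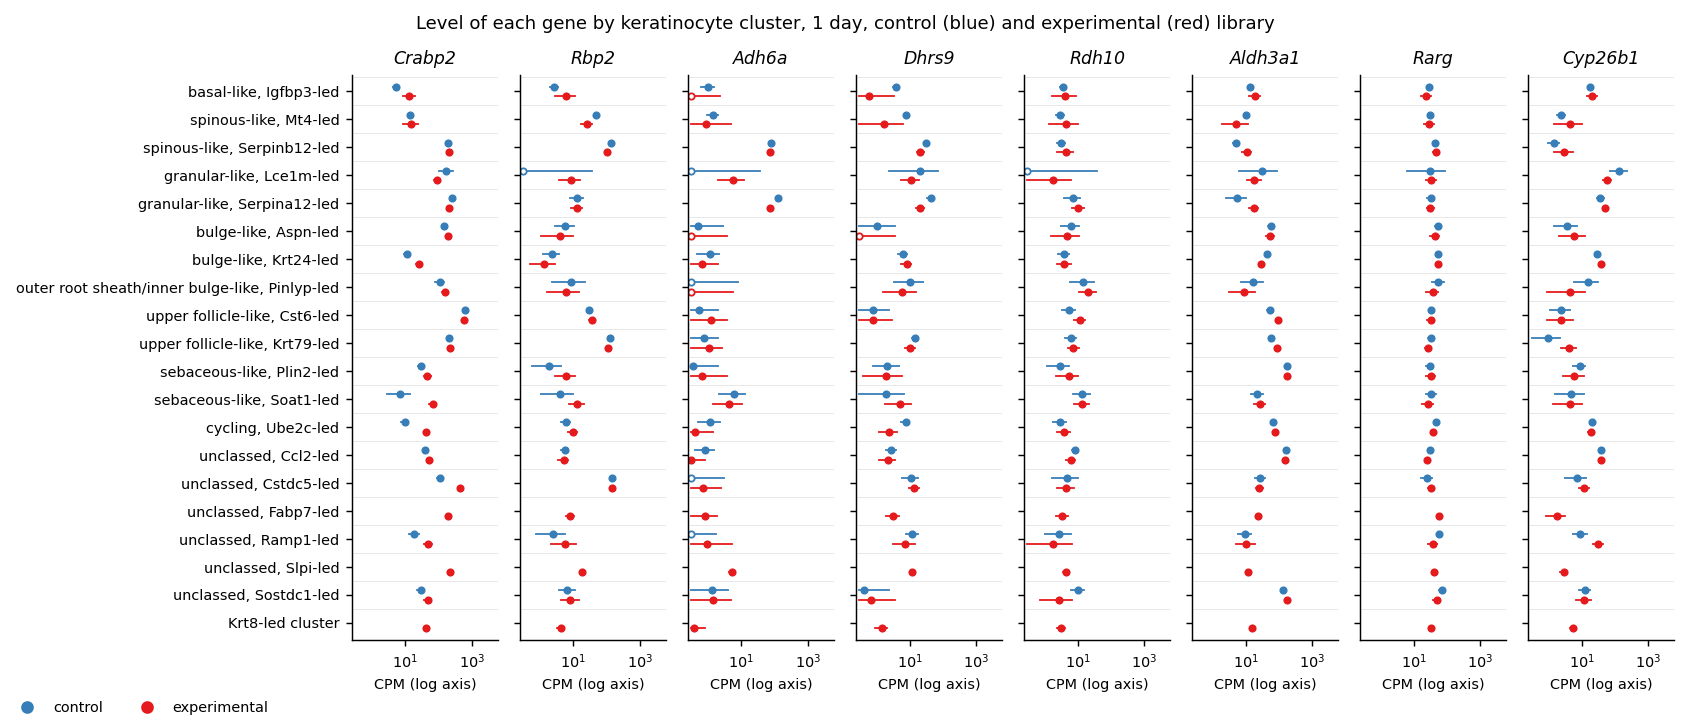
CPM of each gene (log x axis) by cluster (y axis) at 1 day, blue for control and red for experimental, with bars for 95% Poisson intervals and open circles for clusters with 0 UMIs. Crabp2 is highest in the Cst6-led upper follicle-like cluster at 619 and 584 CPM, while the Serpinb12-led spinous-like and Serpina12-led granular-like clusters hold 82.6% and 12.3% of Adh6a UMIs of control and 44.9% and 28.3% of experimental keratinocytes, where the Slpi-led cluster holds 20.7%.

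Rbp2 encodes cellular retinol binding protein 2, a carrier of retinol and retinaldehyde best known from the absorptive cells of the gut (chr9:98486115-98509781, + strand). In the control libraries, among clusters of at least 50 cells, it was highest in spinous-like and upper follicle-like ones and, at 1 day, in the Cstdc5-led one. At 1 day control keratinocytes had 43.2 CPM and experimental ones 27.5 CPM (log2 ratio -0.65 [-0.73, -0.58]). At 1 week they had 31.6 and 92.1 CPM (1.54 [1.45, 1.63]). The sign of the difference was opposite at the 2 times, in sums that count the Prl2c3-led cluster at 1 week but not the Krt8-led one at 1 day. In the control library of 1 day the Cstdc5-led cluster had 144 CPM, the Serpinb12-led spinous-like cluster 133 CPM and the Krt79-led upper follicle-like cluster 122 CPM, with intervals that overlapped between neighbours in this order, and basal-like cells had 2.61 CPM.

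Of 9 keratinocyte clusters with at least 30 UMIs of the gene and at least 50 cells in both libraries at 1 day, the Rbp2 interval lay below 0 in 3, above 0 in 2 and held 0 in 4. The 3 were the spinous-like clusters and the Krt79-led one. The Mt4-led spinous-like cluster had 47.2 and 25.6 CPM (-0.88 [-1.47, -0.35]) and the Serpinb12-led one 133 and 104 CPM (-0.36 [-0.52, -0.20]). The Krt79-led upper follicle-like cluster had 122 and 106 CPM (-0.21), and the Cstdc5-led cluster 144 and 148 CPM (0.04 [-0.22, 0.29]). From low control levels it was higher in basal-like cells, with 2.61 and 6.02 CPM (1.20 [0.07, 2.19], from 58 and 10 UMIs), and in cycling cells, with 5.98 and 9.46 CPM (0.66 [0.03, 1.30]). The spinous-like clusters held 20.4% and 55.2% of control Rbp2 UMIs, and their cells were fewer in the experimental library, 330 against 3436 and 637 against 1819. The Slpi-led cluster had 17.5 CPM and the Krt8-led one 4.15 CPM, low beside spinous-like cells.

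At 1 week, 70.0% of control Rbp2 UMIs came from spinous-like cells (75.5 CPM), of which the experimental library held 6. There, 72.4% came from the Prl2c3-led cluster, at 169 CPM, and the Aldh1a3-led cluster had 794 CPM. In clusters of both libraries the upper follicle-like cells had 90.3 and 93.8 CPM (0.05 [-0.16, 0.27]) and the Ccl2-led cells 2.90 and 13.8 CPM (2.25 [1.55, 3.02], from 20 and 108 UMIs). So the upper follicle-like level did not differ beyond counting error, and the Ccl2-led level was higher from a low start. Outside keratinocytes, Rbp2 differed in myeloid-like cells, with 7.24 and 24.9 CPM (6 and 27 UMIs). By number these cells were mostly Cd207-led in control and Ccl8-led in experimental. The Ccl8-led cluster was shallower, with a median of 1384 UMIs against 4761.5 UMIs, so its cells weigh less in CPM. Endothelial-like cells had 0 and 16.3 CPM (0 and 11 UMIs), too few UMIs for a call. Their intervals overlapped, with an upper limit of 13.4 CPM in control and a lower limit of 8.16 CPM in experimental. The part of free RNA in these values was not tested. In bulge-like cells the 2 libraries held 4 and 1 UMIs. The annotation places a further transcript, Gm37113, on the same strand within Rbp2, and reads of the 2 cannot be told apart.

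Adh6a encodes an alcohol dehydrogenase of the class V family, whose substrates are not well known (chr3:138313286-138331134, + strand). In control epidermis it lay mostly in spinous-like and granular-like clusters, but not in all of them. Control keratinocytes had 16.5 CPM (1858 UMIs) at 1 day and 13.7 CPM (669 UMIs) at 1 week, and experimental ones 8.10 CPM (584 UMIs) and 0.309 CPM (11 UMIs). The log2 ratios were -1.03 [-1.17, -0.90] at 1 day and -5.47 [-6.48, -4.62] at 1 week. At 1 day 82.6% of its control UMIs came from the Serpinb12-led spinous-like cluster, which held 8.62% of the keratinocytes and also leads with Ivl, the cornified envelope protein involucrin, and with Adh6a itself. Every keratinocyte cluster other than this and the Serpina12-led granular-like one stayed at or below 5.82 CPM in both libraries.

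At 1 day the clusters that hold Adh6a differed less than the sum. The Serpinb12-led spinous-like cluster had 76.3 CPM in control and 71.6 CPM in experimental (log2 ratio -0.09 [-0.29, 0.10]). The Serpina12-led granular-like cluster had 126 and 72.7 CPM (-0.79 [-1.09, -0.49]), the lower level being in the experimental library. The Slpi-led cluster had 5.12 CPM although it leads with genes of the outer layers such as Alox12b, a lipoxygenase of the lipid barrier. Summed over the 16 clusters of both libraries the log2 ratio was -0.59 and not past 2-fold. As a mean over cells of each cell's own CPM, the keratinocyte value was -0.21.

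At 1 week Adh6a was nearly missing from the experimental library, granular-like cells included. Those cells had 92.9 CPM in control (57 UMIs in 30 cells) and 1.27 CPM in experimental (3 UMIs in 147 cells), a log2 ratio of -6.19 [-8.51, -4.57]. In that cluster 13.5% of all tested genes were past 2-fold lower, and the median log2 ratio over them was -0.23. It is led by Lce1a2. The Lce1m-led granular-like cluster of 1 day had 6 Adh6a UMIs in 280 experimental cells (5.46 CPM). Its 16 control cells had 0 UMIs, with an upper 95% limit of 36.9 CPM. Whether the granular-like cells of the 1-week libraries are like cells was not tested. Spinous-like cells, with 37.7 CPM in control, were 6 in the experimental library, with 0 Adh6a UMIs, with an upper 95% limit of 40.2 CPM. The Prl2c3-led cluster had 0.285 CPM (4 UMIs). After thinning, 0.835% of control keratinocytes had an Adh6a UMI and 0.0647% of experimental ones (2 of 3089 cells). Adh6a has close copies nearby, among them Adh6b, and reads may be split between them.

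Dhrs9 encodes a short-chain dehydrogenase that oxidises retinol and steroids (chr2:69380445-69404533, + strand). It followed the outer layers like Adh6a, but less tightly. Keratinocytes had 10.8 CPM in control and 8.32 CPM in experimental at 1 day (log2 ratio -0.38 [-0.52, -0.24]), and 2.57 and 6.69 CPM at 1 week (1.38 [1.06, 1.70]). In control cells at 1 day the Serpina12-led granular-like cluster had 43.3 CPM and the Serpinb12-led spinous-like one 30.6 CPM, and basal-like cells had 3.87 CPM.

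At 1 day Dhrs9 was lower in the experimental library in several interfollicular clusters and in cycling cells, which were not assigned to a layer or to the follicle. The Serpina12-led granular-like cells had 43.3 and 21.2 CPM (-1.03 [-1.58, -0.50]) and the Serpinb12-led spinous-like cells 30.6 and 21.3 CPM (-0.52 [-0.88, -0.18]). The Mt4-led spinous-like cells had 7.80 and 1.77 CPM (-2.14 [-5.20, -0.27], from 164 and 2 UMIs), basal-like cells 86 and 1 UMIs and cycling cells 7.58 and 2.37 CPM (-1.68 [-2.72, -0.76]). Of 10 clusters with enough UMIs and at least 50 cells in both libraries the interval lay below 0 in 5, above 0 in none and held 0 in 5. The Slpi-led cluster, with 11.5 CPM, held 45.2% of the experimental UMIs. Follicle cells showed no difference beyond counting error, with 14.8 and 10.4 CPM in the Krt79-led and 6.23 and 8.12 CPM in the Krt24-led cluster.

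The higher sum of Dhrs9 at 1 week came with a change of clusters. In control, 63.5% of UMIs were in spinous-like cells at 5.57 CPM, and in experimental 63.4% were in Prl2c3-led cells at 10.8 CPM. Granular-like cells had 16.3 and 22.0 CPM (0.43 [-0.56, 1.57]). Upper follicle-like cells had 5.42 and 2.37 CPM (-1.19 [-2.38, -0.06], 18 and 12 UMIs), and the sum over the 3 clusters of both libraries was -0.29, the opposite sign of the keratinocyte sum.

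Rdh10 encodes the retinol dehydrogenase of the endoplasmic reticulum that starts retinoic acid synthesis in the embryo (chr1:16105774-16133734, + strand). It was low nearly everywhere. Keratinocytes had 4.43 and 5.26 CPM at 1 day (log2 ratio 0.24 [0.05, 0.44]) and 2.74 and 6.998 CPM at 1 week (1.35 [1.05, 1.67]). At 1 day the highest levels were 14.9 and 20.7 CPM in the Pinlyp-led outer root sheath or inner bulge-like cluster and 13.6 and 13.8 CPM in the Soat1-led sebaceous-like one, both from 7 to 16 UMIs. The Cst6-led upper follicle-like cluster had 5.66 and 11.51 CPM (1.02 [0.15, 1.91]), the only 1 of 10 clusters whose interval left out 0. In that cluster 2.85% of tested genes were past 2-fold higher.

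At 1 week the sebaceous-like cluster, led by Fa2h, had the highest Rdh10 level of the experimental library, 49.3 CPM (61 UMIs in 232 cells) against 9.88 CPM in control (5 UMIs in 37 cells), a log2 ratio of 2.32 [1.02, 3.99]. In that cluster 9.86% of tested genes were past 2-fold higher. The median depth of its cells was 12162 UMIs in control and 2187.5 UMIs in experimental, and whether they are like cells was not tested. The upper follicle-like level was 6.02 and 10.1 CPM (0.75 [-0.03, 1.57]), the Ccl2-led 5.08 and 7.02 CPM (0.47 [-0.17, 1.12]) and the bulge-like 4.41 and 4.04 CPM, none of them apart beyond counting error.

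**Figure D3:**
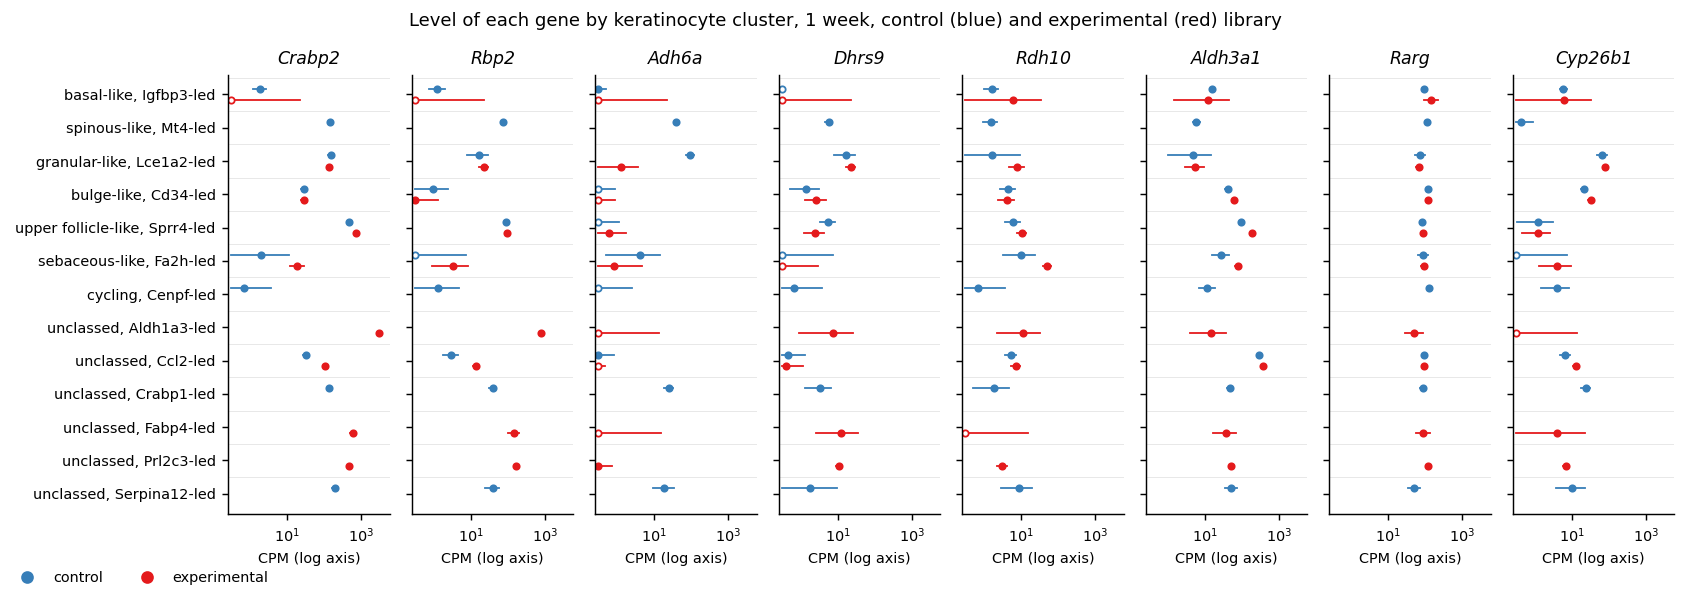
CPM of each gene (log x axis) by cluster (y axis) at 1 week, blue for control and red for experimental, with bars for 95% Poisson intervals and open circles for clusters with 0 UMIs. Crabp2 and Rbp2 peak in the Aldh1a3-led cluster of the experimental library at 3015 and 794 CPM, and Aldh3a1 in the Ccl2-led cluster at 293 and 372 CPM.

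Aldh3a1 had its highest levels at 1 day in the Plin2-led sebaceous-like, the Ccl2-led and the Sostdc1-led clusters, and at 1 week in the Ccl2-led one (chr11:61207537-61218421, + strand). Keratinocytes had 43.1 and 47.1 CPM at 1 day (log2 ratio 0.13 [0.06, 0.19]) and 61.3 and 141 CPM at 1 week (1.20 [1.14, 1.27]). At 1 day the Plin2-led sebaceous-like cluster had 176 and 180 CPM, the Ccl2-led cluster 160 and 153 CPM and the Sostdc1-led cluster 133 and 178 CPM. The other sebaceous-like cluster, led by Soat1, had 22.3 and 26.7 CPM. The Serpinb12-led spinous-like cells stood at 5.17 CPM in control. Aldh3a1 is among the 10 leading genes of the Ccl2-led cluster at both times, so its level there partly describes how that cluster is told apart, although it was kept out of the clustering.

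Of 15 clusters tested at 1 day, the Aldh3a1 interval lay above 0 in 6, the upper follicle-like ones among them, below 0 in 1 and held 0 in 8. The Cst6-led cluster had 52.3 and 94.9 CPM (0.86 [0.58, 1.14]) and the Krt79-led one 59.0 and 85.6 CPM (0.54 [0.31, 0.77]), while the Krt24-led bulge-like cluster had 42.8 and 29.2 CPM (-0.55 [-0.86, -0.25]) and the Aspn-led one 58.6 and 55.2 CPM (-0.09 [-0.57, 0.39]). From a low control level it was past 2-fold higher in the outer layers: granular-like Serpina12-led cells had 5.48 and 17.6 CPM (1.69 [0.66, 2.85]) and Serpinb12-led spinous-like cells 5.17 and 10.9 CPM (1.08 [0.52, 1.62]). The Ccl2-led cluster, which held 40.1% of the control UMIs, did not differ beyond counting error (-0.06 [-0.17, 0.05]), nor did the Plin2-led one (0.03). The Slpi-led and Krt8-led clusters were low, at 11.9 and 15.4 CPM.

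At 1 week Aldh3a1 was higher in all 3 clusters with at least 50 cells in both libraries. Upper follicle-like cells had 95.1 and 194 CPM (1.03 [0.84, 1.21]), bulge-like cells 42.0 and 61.1 CPM (0.54 [0.26, 0.82]) and Ccl2-led cells 293 and 372 CPM (0.35 [0.26, 0.43]). In the upper follicle-like cluster 6.43% of tested genes were past 2-fold higher. The sebaceous-like cells, 37 against 232, had 27.7 and 79.2 CPM (1.52 [0.70, 2.44]), a value that turned to -0.83 for the class when cells were clustered more finely. The Prl2c3-led cluster had 52.0 CPM. After thinning, 10.2% of control and 19.0% of experimental keratinocytes had an Aldh3a1 UMI. Myeloid-like cells at 1 week, by number mostly of different clusters in the 2 libraries, had 27.8 and 104 CPM. The part of free RNA in this difference was not tested.

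Rarg encodes retinoic acid receptor gamma, the main retinoic acid receptor of epidermis (chr15:102234938-102257517, - strand). It differed little between the groups in most keratinocyte clusters, and less between clusters than members such as Adh6a did. Keratinocytes had 36.9 and 39.3 CPM at 1 day (log2 ratio 0.09 [0.02, 0.16]) and 99.3 and 102 CPM at 1 week (0.04 [-0.02, 0.11]). At 1 day its level in keratinocyte clusters with at least 50 cells in both libraries ran from 23.5 CPM in experimental basal-like to 69.8 CPM in control Sostdc1-led cells, and none of these was past 2-fold. Fibroblast-like cells had 88.9 and 42.6 CPM. The interval held 0 in 12 of 16 clusters and lay below 0 in the other 4, which were the cycling (-0.36), Ccl2-led (-0.31), Ramp1-led (-0.64) and Sostdc1-led (-0.51) ones. At 1 week bulge-like cells had 116 and 120 CPM, upper follicle-like 80.7 and 87.9 CPM and Ccl2-led 91.1 and 92.5 CPM, each with an interval that held 0; the 17 basal-like cells of the experimental library had 145 CPM against 90.5 CPM in control (0.68 [0.04, 1.26]). The Prl2c3-led cluster had 115 CPM, near the 114 CPM of control spinous-like cells. These values bound the differences at the scale of counting error and do not show that the receptor level is the same in the mice.

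Cyp26b1 encodes the cytochrome P450 that breaks retinoic acid down in skin (chr6:84571414-84593908, - strand). Its highest level in both pairs of libraries was outside keratinocytes, in fibroblast-like cells, at 205 CPM in control and 70.3 CPM in experimental at 1 day and, for 1 week, 554 and 792 CPM. Keratinocytes had 13.3 and 13.3 CPM at 1 day (log2 ratio 0.00 [-0.11, 0.12]) and 6.90 and 15.2 CPM at 1 week (1.14 [0.94, 1.34]). Among them it had a split pattern: the Ccl2-led cluster (39.2 and 37.0 CPM), the Serpina12-led granular-like cluster (36.2 and 51.1 CPM) and the Krt24-led bulge-like cluster (29.5 and 39.1 CPM) were high at 1 day. The Serpinb12-led spinous-like cells (1.44 and 3.01 CPM) and both upper follicle-like clusters (0.963 to 4.15 CPM) were low.

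The summed level of 7 fibroblast markers is given beside these clusters because fibroblast-like cells hold so much Cyp26b1. It was 9.13 and 11.6 CPM in the Ccl2-led and 10.96 and 14.5 CPM in the Serpina12-led granular-like cluster, with Lum at 0 in both, against 3397 and 2571 CPM in fibroblast-like cells. In the Krt24-led bulge-like cluster it was 545 and 698 CPM, nearly all of it Sparc (504 and 628 CPM), with Col1a1 at 2.91 and 5.71 CPM. At 1 day the interval lay above 0 in 3 of the 11 clusters with enough UMIs and at least 50 cells in both libraries, the Ramp1-led (9.05 and 31.0 CPM, 1.77 [0.92, 2.67]), the Serpina12-led granular-like (0.50) and the Krt24-led bulge-like (0.41 [0.11, 0.70]). It lay below 0 in none of the 11, but did in the Lce1m-led granular-like cluster, with 130.2 CPM in 16 control cells and 58.2 CPM in 280 experimental ones (-1.16 [-2.04, -0.18]), where 6.74% of genes were past 2-fold lower and 15.7% higher. At 1 week bulge-like cells had 21.6 and 32.8 CPM (0.60 [0.21, 1.00]) and Ccl2-led cells 6.53 and 13.1 CPM (1.01 [0.49, 1.55]). A Crabp1-led cluster of 122 cells, in the control library alone, held 15.4% of the control UMIs at that time. It was counted among keratinocytes but shares leading genes with the fibroblast-like cells of 1 day. Granular-like cells had the highest keratinocyte level, 66.8 and 80.8 CPM (0.27 [-0.22, 0.80]), and spinous-like control cells had 0.417 CPM. Those granular-like cells of the experimental library are the ones in which Adh6a was nearly missing.

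The rest of the pathway was read from lists of 85 other genes, of which 69 had enough UMIs in keratinocytes at each time. At 1 day 12 were past 2-fold higher, 5 lower and 52 neither, beside the 5.78% and 2.8% of all genes; at 1 week 26 were higher, 7 lower and 36 neither, beside 9.44% and 5.29%. The median log2 ratio of the 69 was -0.02 at 1 day and 0.54 at 1 week, beside 0.00 and 0.08 over all genes. A gene that stands in several lists counts once. Most of these genes are given as sums over keratinocytes only, in which cell makeup and level per cell cannot be told apart. The lists were chosen with earlier results of these data known, so these counts are a description and no test of the pathway. Genes outside the naming rule are named only to complete a count, after their values were seen.

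Among binding proteins and carriers, 1 of 8 genes was past 2-fold higher and 1 lower at 1 day, and 4 of 7 were higher and 2 lower at 1 week. Rbp7 (0.245 and 1.43 CPM), Ttr (0.143 and 0.927 CPM) and Fabp5 (2.10 on the log2 scale) were among the higher at 1 week, and Crabp1 (-1.36) and Lrp1 (-1.12) were the lower. The Crabp1-led cluster of 122 cells, counted among keratinocytes, was in the 1-week control library alone. It also leads with Serpine2, Pappa2, Tnfaip6 and Dkk2, as the fibroblast-like cluster of 1 day does. How much of the Crabp1 difference lies in that cluster was not tested. Lrp1, a receptor that takes up lipoproteins, was also the lower one at 1 day, with 18.7 and 9.30 CPM.

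Ester formation and release had 2 of 8 genes higher at 1 day and 6 of 8 at 1 week, and none lower. These counts are from sums over keratinocytes. Sebaceous-like cells were 37 of 6027 control and 232 of 3312 experimental keratinocytes at 1 week. How much of the 1-week differences follows from that makeup was not tested. Lipe, the hormone-sensitive lipase that also splits retinyl esters, had a log2 ratio of 1.53 at 1 day, from 14.3 and 41.2 CPM, and of 1.51 at 1 week, from 9.89 and 28.1 CPM. Its 1-day level was 70.9 CPM in the Slpi-led cluster. Awat2, a wax and retinyl ester synthase, went with it at lower levels, with 0.704 and 1.87 CPM at 1 day, then 1.00 and 9.50 CPM (3.25) in the 1-week libraries, and in sebaceous-like cells of the 1-week experimental library 243 CPM. The carotenoid genes Bco1, Scarb1 and Cd36 were 3 of 4 higher at 1 week, with log2 ratios of 1.77, 2.05 and 1.95, and only Bco1 (1.09) was at 1 day.

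Of 9 tested genes of retinol oxidation, 1-day keratinocytes had 2 past 2-fold upward and 3 downward. For the 1-week libraries these counts were 3 and 1. Adh1 was lower at both times, with 11.8 and 4.13 CPM (-1.51) and 18.2 and 6.41 CPM (-1.51), and Adh7 at 1 day with 31.8 and 11.6 CPM (-1.45). Both are classical alcohol dehydrogenases that oxidise retinol. Rdh16 (-1.41, from 33 and 8 UMIs) was the third of the 3 lower at 1 day. Rdh1 (1.12 and 1.54) and Rdh9 (1.24 and 1.19), short-chain dehydrogenases with near-identical copies between which reads may be split, were higher at both times, and Sdr16c6 (49.0 and 114 CPM) at 1 week. In the sebaceous-like cells led by Soat1 at 1 day Adh1 had 141 and 71.6 CPM, and in the Serpinb12-led spinous-like cells 39.2 and 18.8 CPM, lower in the experimental library in both. None of the 8 tested genes of retinaldehyde reduction was past 2-fold at either time. The largest difference there was -0.53, in Rdh12 at 1 week.

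Aldh1a3, 1 of the retinaldehyde dehydrogenases that make retinoic acid, had a log2 ratio of 2.71 at 1 day, from 0.552 and 3.61 CPM, and of 4.95 at 1 week, from 0.347 and 10.8 CPM. At 1 week 299 of its 383 experimental UMIs lay in the 76 cells of the Aldh1a3-led cluster, where Crabp2 had 3015 CPM and Rbp2 794 CPM. That cluster also leads with S100a8, S100a9 and Klk13, a kallikrein protease. Upper follicle-like cells had 4.21 and 10.9 CPM. The close copies Aldh1a1 (3.21 and 1.49 CPM) and Aldh1a7 (2.94 and 1.43 CPM) were lower at 1 week. Cyp26a1 and Cyp26c1, the other CYP26 enzymes, had no UMI in keratinocytes of any of the 4 libraries.

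Nuclear receptors and corepressors had none of 8 genes past 2-fold at 1 day and 1 at 1 week, Pparg (2.70 and 5.62 CPM, 1.06), the receptor of sebocyte and fat cell differentiation. Of genes known to respond to retinoic acid, 5 of 11 were higher at 1 day and none lower, and 7 of 12 were higher and 2 lower at 1 week. Hbegf, an EGF receptor ligand, had 188 and 797 CPM at 1 day (2.08), Krt4, a keratin of internal epithelia, 0.267 and 4.44 CPM (4.05) and Rarres1 55.1 and 153 CPM (1.48). Lcn2 (1.15) was also among the 5. At 1 week Krt4 had 0.449 and 16.3 CPM (5.18), with 561 of 580 experimental UMIs in the Prl2c3-led cluster, and Lcn2, an iron-binding protein of inflamed epithelium, 4.19 and 121 CPM (4.85). Several genes of this list are also known to respond to other signals. Rarres2 (-1.77) was among the lower genes.

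Other aldehyde dehydrogenases had 1 of 13 higher at 1 day, Aldh3b3 (0.107 and 0.610 CPM), and 1 lower, Aldh1l2 (-1.88, from 40 and 7 UMIs). At 1 week 3 of 13 were higher: Aldh3b3 (0.102 and 4.81 CPM, 5.56), Aldh18a1 (4.62 and 12.5 CPM, 1.44) and Aldh5a1 (3.68 and 9.44 CPM, 1.36). Within the Ccl2-led cluster, whose cells both libraries held, the lists had 2 of 48 genes higher and 3 lower at 1 day, where 2.1% and 0.733% of all genes were, and 5 of 51 higher and 4 lower at 1 week, where 3.77% and 2.58% were. Other clusters of both libraries had other counts, such as 8 of 32 higher and 5 lower in the Cstdc5-led one at 1 day (10.7% and 3.05% of all genes). At 1 week the upper follicle-like cluster had 7 of 45 higher and 2 lower (6.43% and 1.68% of all genes) and the bulge-like one 6 of 44 and 0 (3.32% and 3.72%).

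**Figure D4:**
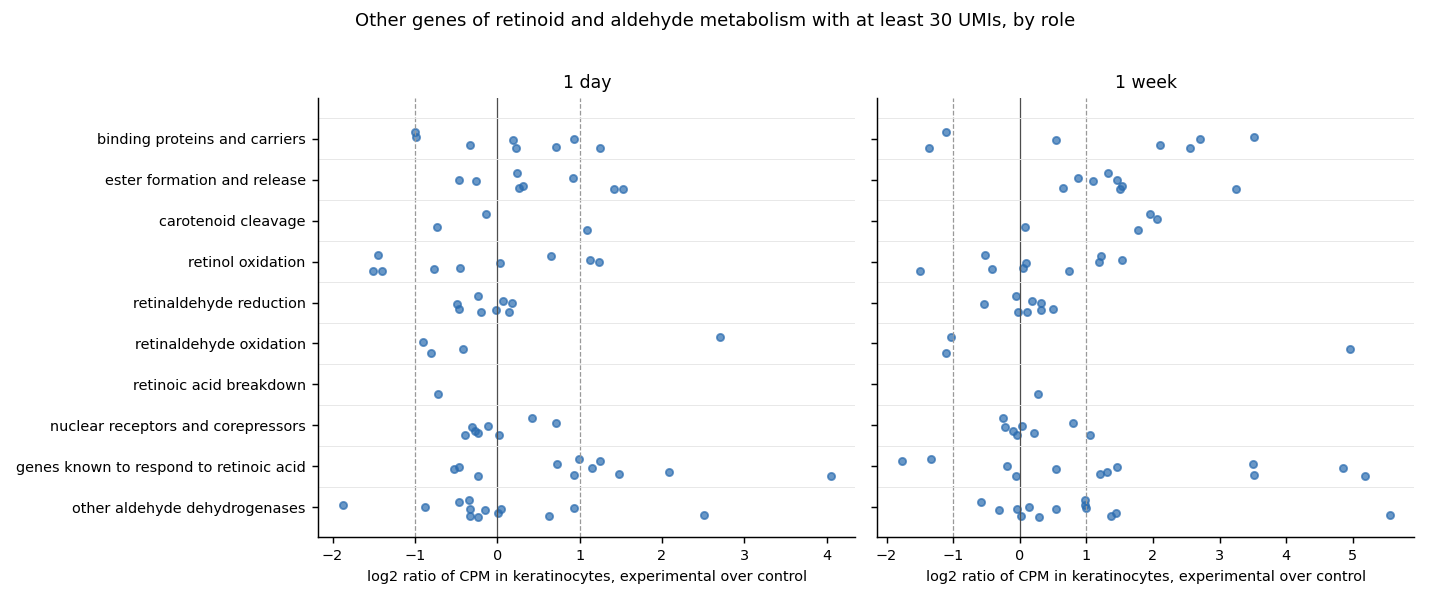
Log2 ratio of experimental over control CPM in keratinocytes (x axis) for the other pathway genes with at least 30 UMIs, by role (y axis), at 1 day and 1 week. Dashed lines mark 2-fold; retinaldehyde reduction stays within them at both times, and Aldh1a3 (2.71 and 4.95) lies far right of the other retinaldehyde oxidation genes.

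The genes most like the members were taken by the Pearson correlation of log2(CPM + 1) over 29 keratinocyte class sums of at least 50 cells, among 8967 genes. The sums are of both time points, so part of each correlation can follow the kit, and the points share libraries; the values are a description with no test. Crabp2 was most like Sort1 (r = 0.94), Notch3 (0.92) and Nfatc2 (0.91), and Rbp2 like Tmprss4, Rab25 and Tmem45a (each 0.88). Adh6a was most like its neighbour and close copy Adh6b (0.92), then 1700029B22Rik (0.90) and Gng13 (0.88). Rdh10 was most like Ctsd (0.85), Gcc2 (0.84) and Ing4 (0.83). Aldh3a1 was most like Pkdcc (0.85), Igfbp4 (0.84) and Runx2 (0.83), of which Runx2 and Igfbp4 also lead the Ccl2-led cluster at 1 of the times. Rarg was most like CAAA01147332.1 (0.94), Add1 and Hnrnpl (each 0.93). Its levels vary least within a time point, so the kit can weigh more in these values than in those of other members. Cyp26b1 was most like Ecm1 (0.83), Crlf3 (0.80) and Ak1 (0.75). Among the 8 members themselves the closest pair was Crabp2 and Rbp2 (0.78).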

How the data were processed

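Single-cell UMI counts per gene and barcode were used as deposited; per the submitters' processing notes the authors used Cell Ranger 5.0.1, Seurat and build mm10, with no role or order given. Barcodes under 500 UMIs or 300 genes or with over 15% mitochondrial UMIs were left out, and Scrublet's top 0.8% per 1000 barcodes (2686 to 8121 a library) was removed as doublets. No cell annotation was used. Cells of each time point were clustered together in scanpy 1.11.5 (2000 variable genes, 30 components, 15 neighbours, Leiden resolution 1), without the 8 genes and the pathway lists. Names came from marker lists. Clusters with a median under 2000 UMIs, under 50 cells or mixed markers, and the Krt8-led one, were not counted as keratinocytes, by limits chosen after seeing the data. The naming may differ from the study's. A hashtag assay of the 1-day libraries was not used: the labels do not say what the tags mark, and only 3.05% and 2.80% of cells had at least 80% of their tag UMIs from 1 tag.

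UMIs were summed per library and cluster and divided by all gene UMIs (CPM). Intervals are exact 95%: Poisson for levels, conditional binomial for ratios, Clopper-Pearson for shares, and all cover counting error only. The 2-fold limit applied to genes with at least 30 UMIs over both libraries; ratios within clusters needed at least 15 cells in each. Gene IDs were matched to GENCODE M21 (32158 of 32285) for coordinates on GRCm38. The other named genes are, per pathway list and time point, the up to 3 with the largest absolute log2 ratio in keratinocytes, and per member the 3 with the highest correlation over keratinocyte classes. Members and lists were chosen with earlier results of these data known. Scripts were tested on simulated data. Some genes that these rules name are not reported here.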

Additional observations from a re-analysis of the deposited data

Results flagged for a closer look

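In keratinocytes together or in sums over a named class of clusters, 5 log2 ratios had opposite signs at 1 day and 1 week, each with an interval that left out 0; the difference between the time points was not tested, and kit and time cannot be told apart. Rbp2 in keratinocytes had a log2 ratio of -0.65 at 1 day and 1.54 at 1 week, and Dhrs9 -0.38 and 1.38. These 1-week sums count the Prl2c3-led cluster, which also leads with Krt8, whereas the 1-day sums leave the Krt8-led cluster out. Aldh3a1 in the bulge-like class had -0.44 and 0.54, where the 1-day clusters had -0.55 (Krt24-led) and -0.09 (Aspn-led, an interval that held 0).

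The other 2 class values at 1 day lie below both of their clusters, whose shares of the class differ between the libraries, and each of those clusters has an interval that holds 0. Aldh3a1 in the sebaceous-like class had -0.26 and 1.52, with 0.03 in the Plin2-led (468 and 285 cells) and 0.26 in the Soat1-led cluster (129 and 261 cells) at 1 day, and the 1-week value was -0.83 at clustering resolution 2. Crabp2 in the upper follicle-like class had -0.092 and 0.67, with -0.08 in the Cst6-led (1087 and 792 cells) and 0.03 in the Krt79-led cluster (967 and 964 cells) at 1 day. The unclassed keratinocytes, which pool clusters held by 1 library with others, were not among these sums; there Adh6a had 2.11 at 1 day (13 and 132 UMIs) and -5.26 at 1 week (66 and 4 UMIs).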

How the results depend on the processing

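The number of members past 2-fold in keratinocytes at 1 day, 2 in the main analysis, was 1 with the Krt8-led and unnamed clusters counted, 1 with low-UMI clusters counted, 1 at clustering resolution 2, 1 with all barcodes passing the filters and 1 with totals without mitochondrial and ribosomal protein genes; in these 5 Crabp2 missed the limit (log2 ratio 0.82, 0.82, 0.99, 0.82 and 0.96). It was 1 with the mean over cells of CPM, where Adh6a was at -0.21, and 0 with only clusters of 50 or more cells in both libraries, where Crabp2 was at 0.81. At 1 week, with 7 in the main analysis, that last setting gave 1, counting low-UMI clusters and all barcodes each gave 6, without Cyp26b1 (0.92 and 0.51), and the mean over cells of CPM gave 5, without Aldh3a1 (0.94) and Cyp26b1 (0.95). Of the values past 2-fold, Dhrs9 at 1 week changed sign, at -0.29 with only clusters of 50 or more cells in both libraries, and so did Aldh3a1 in the sebaceous-like class at 1 week, at -0.83 at resolution 2; the cause was not tested. Keratinocyte ratios near 0 also crossed it under some settings, with ranges of -0.08 to 0.73 for Aldh3a1, -0.06 to 0.12 for Rarg and -0.26 to 0.59 for Cyp26b1 at 1 day and -0.07 to 0.08 for Rarg at 1 week. Of the single log2 ratios, 514 moved by less than their interval and 94 by more. Adh6a at 1 week has no value under the setting of clusters in both libraries, for want of UMIs. Counting low-UMI clusters, leaving out shared barcodes and the setting of clusters in both libraries were chosen after seeing the data. No paired analysis was possible because each group is 1 library, and for the same reason no library could be left out. Low counts limit Adh6a, Dhrs9 and Rdh10 within clusters.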
